A study of Mus musculus with 15 samples.

Results

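Hmga2, Igf2bp1, Igf2bp3, Lin28b and Igf2 are oncofetal genes, active in the embryo and switched down in most adult tissues. Igf2bp2 is grouped with them here as a further Igf2bp gene. The set was chosen by a measured value, the rise of Hmga2 in the pooled transformed prostate lines over the control cultures. Its other genes were added as relatives in function, with earlier results of these data known. A probe set assigned to the gene alone was found for 5 of the 6 genes, among 19938 genes measured in this way. Igf2bp2 was not analysed here. Igf2bp1 had 2 such probe sets and is given by the brighter.

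RNA came from epithelial cells of the ventral prostate of FVB mice and was measured on 15 arrays, 3 in each of 5 groups. The control group held primary cultures with no transduced gene, and the other groups held lines transformed by c-myc (called Myc), neuT (NeuT), ha-ras (Ras) or v-src (Src). The neuT oncogene encodes a mutant, constantly active ERBB2 receptor, ha-ras a small GTPase of growth factor signalling, v-src a viral tyrosine kinase and c-myc a transcription factor. The design text counts 3 lines for each oncogene, and no label says whether these came from separate transductions or animals. The p-values therefore describe only the variation among these arrays, part of which may be technical. Lines were grown in medium with 10% FBS, whereas controls stayed in primary culture medium until the night before harvest, at 85 to 90% confluence in every group. Medium and transformation cannot be told apart in a comparison with control.

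HMGA2 is a small chromatin protein whose AT-hooks bind the minor groove of AT-rich DNA. The IGF2BP proteins bind messenger RNAs, among them that of the fetal growth factor IGF2, and affect their stability, transport and translation. LIN28B binds precursors of the let-7 microRNAs and blocks their maturation, and mature let-7 represses Hmga2, the Igf2bp genes and Lin28b itself. In the adult prostate these genes are known mostly from tumours.

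The let-7 family is shown first because its seed links the members: bases 2 to 8 of the microRNA, in capitals, pair with target messages. All 9 let-7 and miR-98 mature forms matched in RefSeq (GRCm38.p6) share the seed GAGGUAG. The 3 below belong to the precursor genes that differed most among the oncogene groups.
mmu-let-7f-5p: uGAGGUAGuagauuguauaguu
mmu-let-7g-5p: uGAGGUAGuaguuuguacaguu
mmu-let-7i-5p: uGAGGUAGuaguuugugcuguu

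The 250 bases upstream of the RefSeq start (GRCm38.p6) are printed for Hmga2, which chose the set, and for Igf2bp3 and Lin28b, which stood opposite in Ras. Capitals mark CACGTG, the E-box that MYC and related factors bind, or GGGCGG, the GC box bound by SP1, on either strand.
Hmga2, chr10:120476470-120476719, minus strand: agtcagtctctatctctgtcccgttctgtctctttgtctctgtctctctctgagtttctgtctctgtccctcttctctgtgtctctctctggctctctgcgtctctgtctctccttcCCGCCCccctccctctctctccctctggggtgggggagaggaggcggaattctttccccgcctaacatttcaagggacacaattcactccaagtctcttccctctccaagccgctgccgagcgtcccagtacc
Igf2bp3, chr6:49214955-49215204, minus strand: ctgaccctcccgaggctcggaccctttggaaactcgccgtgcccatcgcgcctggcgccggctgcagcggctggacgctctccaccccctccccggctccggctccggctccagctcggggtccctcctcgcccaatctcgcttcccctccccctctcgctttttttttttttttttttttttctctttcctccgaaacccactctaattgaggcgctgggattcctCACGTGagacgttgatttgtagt
Lin28b, chr10:45470202-45470451, minus strand: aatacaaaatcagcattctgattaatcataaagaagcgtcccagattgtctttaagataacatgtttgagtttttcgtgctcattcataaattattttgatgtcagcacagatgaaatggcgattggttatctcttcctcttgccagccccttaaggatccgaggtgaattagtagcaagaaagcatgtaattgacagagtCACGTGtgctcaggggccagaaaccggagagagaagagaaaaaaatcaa
The E-box lies at base 228 of the Igf2bp3 window and base 202 of the Lin28b window, and the GC box at base 118 of the Hmga2 window. Among 32851 promoter windows of this length, 6.02% held CACGTG, 32.7% held GGGCGG and 6.75% held TGANTCA, the AP-1 element, which none of these 3 windows held. A match describes the letters alone.

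The arrays were read for their labels and tissue before the members. Levels are on the log2 scale. Array medians lay between 6.19 and 6.32, and 6.47 was the median of all gene values, used here as a mark of low signal. Erbb2 was higher in the NeuT arrays than in control (log2 difference 1.70, limma adjusted p = 4.27e-07). The Myc probe set was below control in the Myc lines (-0.92, adjusted p = 0.00207), and that of Src did not pass in the Src lines (0.05, adjusted p = 0.743). Whether these mouse probe sets detect the transduced c-myc and v-src was not tested, and no probe set was examined for ha-ras. Directions in the libraries labelled Myc, Ras and Src thus rest on the labels. The 5 basal markers (Krt5, Krt14, Krt15, Trp63 and Dsg3) averaged 9.75 to 10.28 per array in control, 10.03 to 10.35 in Src, 7.80 to 7.92 in Myc and 5.61 to 5.72 in Ras. In NeuT 1 of the 5 basal markers reached a group mean of 6.47 and in Ras 0, and the luminal keratin gene Krt8 was at 7.32 to 7.73, against 12.78 to 12.95 in control. Krt18, its keratin partner, was at 11.90 to 12.48 in control, 10.42 to 12.33 in Myc, NeuT and Src and 5.80 to 9.83 in Ras, and Krt8 was at 11.41 to 12.88 in Myc, NeuT and Src. The protease gene Tmprss2 was at 8.47 to 8.86 in control and 5.30 to 5.88 in the lines. Of the 4 measured luminal markers, 3 thus reached 6.47 in control and 2 in each line group, while the secretory gene Pbsn was at 2.99 to 3.29 in all 15 arrays. The 7 kidney tubule markers averaged 9.89 in control array 3 and 5.62 at the lowest control. In that array Hmga2 differed from the mean of the other controls by -0.17, Igf2bp1 by -0.33, Igf2bp3 by -0.05, Lin28b by 0.00 and Igf2 by 0.06.

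The members followed patterns across the oncogenes that were alike only in part. Pearson r over the 15 arrays was 0.76 for Hmga2 with Igf2bp1, 0.74 for Igf2bp1 with Igf2bp3 and 0.69 for Hmga2 with Lin28b. It was -0.51 for Igf2bp3 with Lin28b, and the other pairs lay between -0.17 and 0.23. These values rest largely on 5 group means. Hmga2 was above control in every line array and highest in NeuT. Igf2bp1 was high in NeuT and Ras, and Igf2bp3 in Ras and less so in NeuT. Lin28b was raised in Myc, NeuT and Src but not in Ras. Igf2 lay between 5.41 and 6.14 in all 15 arrays. An F test of the differences among the 4 oncogene groups called 4 of the 5 measured members (all but Igf2), beside 42.1% of all genes. It compares no control mean, but the control arrays enter the shared estimate of spread. In these bulk samples, more cells that express a gene and more RNA per cell cannot be told apart.

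**Figure D1:**
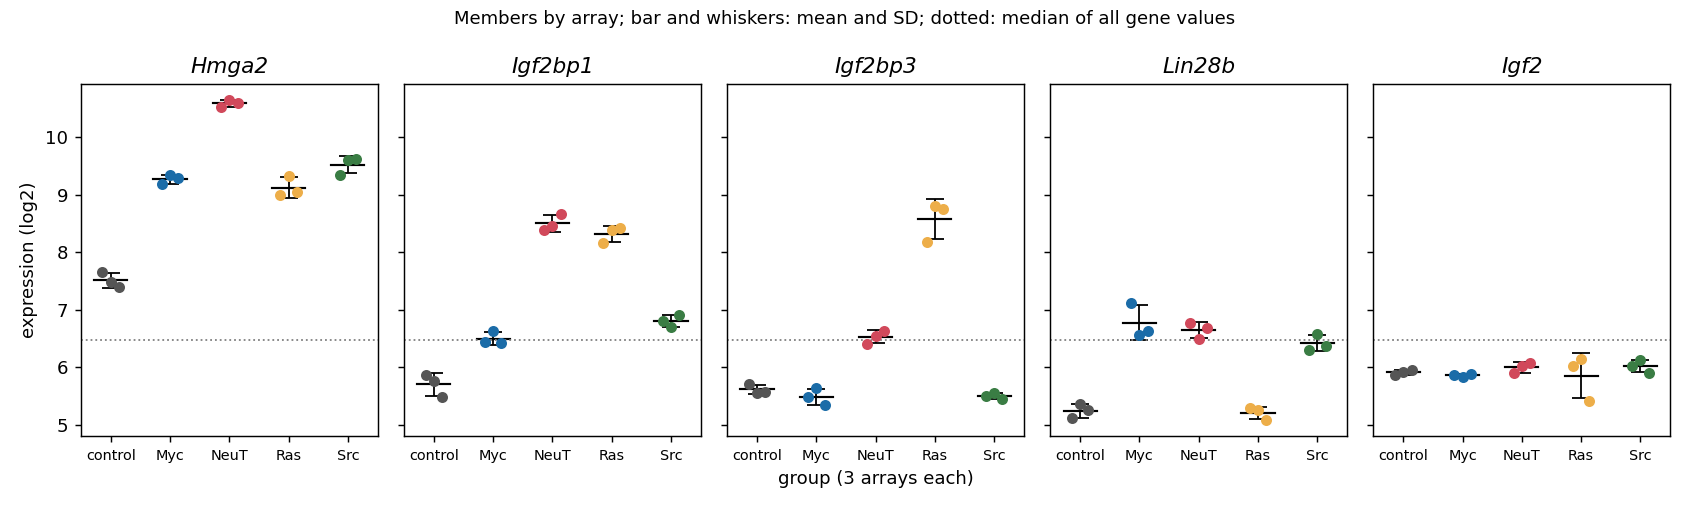
Expression (log2) of the 5 measured members on each array, by group; points are arrays, bars and whiskers the mean and SD of 3, and the dotted line the median of all gene values (6.47). Hmga2 is above control in all 12 line arrays, Igf2bp3 stands highest in Ras, and Lin28b is as low in Ras as in control.

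Hmga2 was at 7.65, 7.49 and 7.40 in the 3 control arrays. In the lines it was at 9.18, 9.34 and 9.28 in Myc, 10.52, 10.65 and 10.59 in NeuT, 8.99, 9.33 and 9.05 in Ras and 9.35, 9.60 and 9.62 in Src. No line array overlapped the controls, and the NeuT arrays lay above every other array. The mean over the oncogene groups was 9.63 against 7.51 in control, a log2 difference of 2.11 ± 0.08 (SE from limma), which chose the set and is given with no test. The differences from control were 1.76 in Myc, 3.08 in NeuT, 1.61 in Ras and 2.01 in Src (each ± 0.10), likewise a description.

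Among the oncogene groups Hmga2 differed by the F test (adjusted p = 2.39e-07, range of the group means 1.46). NeuT exceeded Src by 1.07 ± 0.10 (limma, adjusted p = 5.66e-06), Myc by 1.32 (adjusted p = 1.58e-06) and Ras by 1.46 (adjusted p = 1.31e-07), each at least 2-fold. Below NeuT the order was Src, Myc and Ras. Neighbours in that order did not pass: Myc minus Src was -0.25 (95% interval -0.48 to -0.03, adjusted p = 0.112) and Myc minus Ras 0.14 (-0.08 to 0.37, adjusted p = 0.367). Ras was lower than Src by a log2 difference of -0.40 ± 0.10 (adjusted p = 0.0114). That call was lost without Ras array 1 (adjusted p = 0.054) and without Src array 3 (adjusted p = 0.0522). The genes with the likest pattern to Hmga2, by Pearson r over the 15 arrays among 10943 genes, were Ncapd2, a condensin subunit (r = 0.98), Fosl1, an AP-1 subunit (0.97), and Mthfd1l, a mitochondrial folate enzyme (0.96). The points are 3 arrays of each of 5 groups, so that these r values rest largely on 5 group means.

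The RNA-binding proteins came next. Igf2bp1 was at 5.87, 5.76 and 5.48 in control, 6.44, 6.63 and 6.42 in Myc and 6.81, 6.70 and 6.91 in Src. In NeuT it was at 8.39, 8.45 and 8.66 and in Ras at 8.15, 8.38 and 8.42. The 5 groups thus fell into a low control, an intermediate pair and a high pair, with no overlap between control and any line group. Igf2bp1 rose over control in NeuT by 2.80 ± 0.11 (log2, limma, adjusted p = 1.17e-09) and in Ras by 2.61 ± 0.11 (adjusted p = 6.85e-10). The rise was 2.15-fold in Src (adjusted p = 8.91e-06) and 1.73-fold in Myc (adjusted p = 0.000106). Controls lay below 6.47 and the Myc arrays near it, where the size of a fold change is unsure.

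Among the oncogenes Igf2bp1 spanned 2.00 between group means (F test, adjusted p = 7.43e-09). NeuT and Ras did not pass against each other (log2 difference 0.18, 95% interval -0.06 to 0.43, adjusted p = 0.286). Both exceeded Src, NeuT by 1.69 (adjusted p = 1.54e-07) and Ras by 1.51 (adjusted p = 2.79e-07), and both exceeded Myc (adjusted p = 8.55e-08 and 3.93e-08). Myc minus Src was -0.31 (95% interval -0.56 to -0.07, adjusted p = 0.076), and the difference passed without control array 3 (adjusted p = 0.0351). The dimmer probe set gave the same order of groups, with means of 4.68 in control, 4.98 in Myc, 5.30 in Src, 6.34 in Ras and 6.51 in NeuT. The likest genes were Sh2d1b1, an SH2 adaptor (r = 0.97), Abcb11, a bile salt transporter (0.96), and Pold4, a DNA polymerase delta subunit (0.95).

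Igf2bp3 was at 5.71, 5.56 and 5.58 in control, 5.48, 5.64 and 5.35 in Myc and 5.51, 5.55 and 5.46 in Src. In NeuT it was at 6.41, 6.54 and 6.64 and in Ras at 8.18, 8.80 and 8.75. Only the NeuT and Ras arrays lay above all controls, and the Ras arrays lay above all others. Igf2bp3 rose in Ras by 2.96 ± 0.14 (adjusted p = 1.04e-09) and in NeuT by 0.91 ± 0.14 (adjusted p = 0.000149) by limma. It did not pass in Myc (-0.13, 95% interval -0.42 to 0.16, adjusted p = 0.548) or Src (-0.11, -0.41 to 0.18, adjusted p = 0.572). Control, Myc and Src arrays lay below 6.47 and NeuT arrays near it. The size of differences from these groups is unsure, and a change of a low level could be missed.

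The range of Igf2bp3 among the oncogene groups was 3.09 (F test, adjusted p = 1.13e-09), and 98.9% of all genes had a smaller range. Ras exceeded Src by 3.07 (adjusted p = 8.91e-10), and NeuT was below Ras by a log2 difference of -2.04 (adjusted p = 7.01e-08). NeuT exceeded Src by 1.03 (adjusted p = 9.83e-05) and Myc by 1.04 (adjusted p = 0.000117). Igf2bp1 and Igf2bp3, close relatives, thus differed in where they were high: NeuT and Ras did not pass for Igf2bp1 and were about 4.13-fold apart for Igf2bp3. The likest genes to Igf2bp3 were D5Ertd615e, an uncharacterised transcript (r = 0.97), Mcpt8, a basophil protease (0.97), and Havcr2, an inhibitory receptor of leukocytes (0.97). Mcpt8 was at 10.11 and Havcr2 at 9.34 in Ras, against 5.89 and 5.36 in control. The 5 measured leukocyte markers averaged 5.90 to 5.99 in the Ras arrays and 5.94 to 6.40 in control. Of these, Cd68 (7.10 to 8.19) and Cd3e (6.50 to 7.04) were above 6.47 in all 15 arrays, and Ptprc, Lyz2 and Csf1r were below it in all 15. The part of other cell types in the Igf2bp3 level was not tested.

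Lin28b was at 5.13, 5.37 and 5.25 in control and at 5.29, 5.26 and 5.08 in Ras, which overlapped. It was at 7.12, 6.57 and 6.63 in Myc, 6.78, 6.49 and 6.68 in NeuT and 6.31, 6.57 and 6.37 in Src, all above every control and Ras array. Lin28b rose over control by 1.52 ± 0.14 in Myc (limma, adjusted p = 1.45e-06), 1.40 ± 0.14 in NeuT (adjusted p = 3.45e-06) and 1.17 ± 0.14 in Src (adjusted p = 2.42e-05). The Ras difference was -0.04 (95% interval -0.33 to 0.25, adjusted p = 0.864). Levels near and below 6.47 leave the size of these folds unsure.

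Ras stood apart from each other oncogene in Lin28b (F test, adjusted p = 1.63e-06, range 1.56). Myc exceeded Ras by 1.56 (adjusted p = 9.86e-07), NeuT exceeded it by 1.44 (adjusted p = 2.26e-06), and Ras minus Src was -1.21 (adjusted p = 1.29e-05). The 3 raised groups did not pass against each other, with Myc minus NeuT at 0.12 (95% interval -0.17 to 0.42, adjusted p = 0.73), NeuT minus Src at 0.23 (-0.06 to 0.52, adjusted p = 0.283) and Myc minus Src at 0.35 (0.06 to 0.65, adjusted p = 0.0904). The last passed without Myc array 2 (adjusted p = 0.0489). The likest genes were Rbm28, a nucleolar RNA-binding protein (r = 0.96), Fibp, an intracellular binding partner of a fibroblast growth factor (0.96), and Jag2, a Notch ligand (0.96). The Ras arrays, low in Lin28b, were those highest in Igf2bp3.

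Igf2, the growth factor whose message gave the IGF2BP family its name, showed no such pattern. It was at 5.86, 5.92 and 5.95 in control, 5.87, 5.83 and 5.89 in Myc and 5.90, 6.03 and 6.08 in NeuT. In Ras it was at 6.02, 6.14 and 5.41 and in Src at 6.03, 6.13 and 5.91. The lowest of the 15 values was Ras array 3, and every group mean lay within 0.11 of control. Differences from control were -0.05 in Myc, 0.09 in NeuT, -0.05 in Ras and 0.11 in Src, with 95% intervals that together ran from -0.36 to 0.42 (limma, adjusted p from 0.598 to 0.846). The F test had adjusted p = 0.64. All values were below 6.47, where a change of a low level could be missed.

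**Figure D2:**
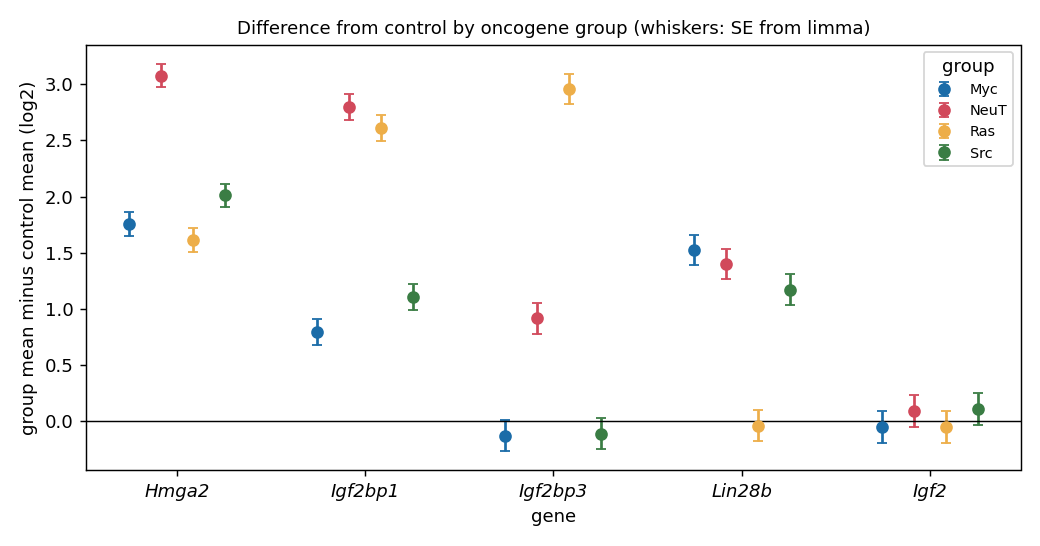
Difference of each oncogene group mean from the control mean (log2) for the 5 measured members; points are group differences and whiskers the SE from limma. Hmga2, which chose the set, is at 1.61 to 3.08, Igf2bp3 is raised in Ras (2.96) and NeuT (0.91), Lin28b is at -0.04 in Ras, and Igf2 lies within 0.11 of 0.

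Counted by comparison, and leaving out Hmga2 because it chose the set, 2 of 4 members rose in Myc, 3 in NeuT, 2 in Ras and 2 in Src, and 0 fell. Among all genes 15.9% rose and 12.7% fell in Myc, 15.2% and 11.6% in NeuT, 13.3% and 14.2% in Ras and 14.2% and 12.2% in Src, at the same adjusted p under 0.05. The 4 comparisons share the 3 controls. The members beside Hmga2 were also named with earlier results of these data known, so these counts against control are a description. Between oncogenes, with Hmga2 included, 3 of 5 members differed in Myc against NeuT (14.9% of all genes), 3 in Myc against Ras (28.4%) and 0 in Myc against Src (18.9%). There were 3 in NeuT against Ras (28.1%), 3 in NeuT against Src (20.2%) and 4 in Ras against Src (26.2%). For the 0 of Myc against Src, limma gave an unadjusted p under 0.05 for 3 members: Hmga2 (0.0287), Igf2bp1 (0.0167) and Lin28b (0.0212).

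The LIN28 and let-7 machinery moved in part. Of 11 measured genes of let-7 biogenesis, 3 rose and 2 fell in Myc, 3 and 2 in NeuT, 3 and 1 in Ras and 2 and 2 in Src. In the same comparisons 13.3% to 15.9% of all genes rose and 11.6% to 14.2% fell. List medians were 0.04, 0.19, 0.19 and 0.18 (log2 over control), beside 0.03, 0.02, 0.02 and 0.06 for all genes. Drosha, the nuclear nuclease that cuts primary microRNAs, rose in each group, by 0.86 in Myc and 0.95 in NeuT (adjusted p = 2.85e-05 and 1.27e-05), 0.41 in Ras and 0.32 in Src. Tut4, a terminal uridylyltransferase that acts with LIN28 on pre-let-7, fell in Myc (-0.45), NeuT (-0.38) and Src (-0.70) and rose in Ras (0.58, adjusted p = 0.00093). Ras exceeded Src in Tut4 by 1.28 (adjusted p = 7.86e-07). Ago2, which holds mature microRNAs, rose in NeuT alone among the tests against control (0.48, adjusted p = 0.0018). Dicer1, which cuts pre-let-7, differed among the oncogenes (F test, adjusted p = 0.00285), at 9.86 in Myc, 9.96 in NeuT, 9.30 in Ras and 9.44 in Src. Lin28a, the paralogue of Lin28b, was at 6.57 in control and 6.49 to 6.82 in the lines. Without control array 3 the counts were 3 and 3 in Myc, 3 and 2 in NeuT, 2 and 2 in Ras and 0 and 2 in Src, where Drosha and the exportin gene Xpo5 were no longer called. The medians were then 0.05, 0.10, 0.15 and 0.08.

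Probe sets of let-7 precursor genes do not measure the mature microRNA, and most were below 6.47. Against control 13.3% to 15.9% of all genes rose and 11.6% to 14.2% fell. Of 10 precursor genes with a probe set of their own, 0 rose and 1 fell in Myc and 0 and 0 in NeuT. The counts were 3 and 0 in Ras and 1 and 0 in Src. In NeuT, limma gave adjusted p above 0.05 for all 10. Mirlet7f-1 was at 6.28, 6.50 and 5.97 in control, 5.77, 5.69 and 4.96 in Myc and 7.74, 6.84 and 7.27 in Ras. All Ras arrays lay above and all Myc arrays below the controls (Ras minus control 1.03 ± 0.26, adjusted p = 0.00822, and Myc minus control -0.78, adjusted p = 0.038). In Ras, Mirlet7g was higher than control by 0.62 (adjusted p = 0.000277) and Mirlet7f-2 by 0.50 (adjusted p = 0.00241). Both stayed below 6.47, at Ras means of 5.48 and 4.31. Mirlet7a-1 and Mirlet7d, on chromosome 13 like Mirlet7f-1, did not pass in Ras (0.02 and -0.03, limma adjusted p = 0.907 and 0.876). Nor did Mir98, on chromosome X like Mirlet7f-2 (-0.03, adjusted p = 0.868). Mirlet7i rose in Src (0.50, adjusted p = 0.000692). List medians were 0.03 in Myc, -0.04 in NeuT, 0.11 in Ras and 0.13 in Src, and without control array 3 they were 0.07, -0.02, 0.12 and 0.17 with the same counts. The Ras group held 3 of the 4 precursor rises over control. Its Lin28b level did not pass against control (limma, adjusted p = 0.864), and a link between Lin28b and these precursors was not tested.

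Other let-7 target genes did not move 1 way. Of 22 measured, 4 rose and 3 fell in Myc, 5 and 3 in NeuT, 4 and 6 in Ras and 5 and 4 in Src, with medians of 0.02, 0.05, -0.04 and 0.11. Among all genes 13.3% to 15.9% rose and 11.6% to 14.2% fell in these comparisons. Without control array 3 the counts were 3 and 4, 5 and 3, 2 and 7 and 6 and 3, and the medians 0.05, 0.02, -0.03 and 0.04. Ccnd1, the D-type cyclin of G1, rose in NeuT by 1.42 (adjusted p = 3.1e-07) and in Src by 0.59, and was at -0.07 in Ras. Cdc34, a ubiquitin-conjugating enzyme of the cell cycle, rose in Myc (0.87), NeuT (1.02) and Src (0.53) and fell in Ras (-0.29, adjusted p = 0.0428). Lin28b rose in the same 3 groups and did not pass in Ras, and a link with Cdc34, 1 of the 22 genes, was not tested. E2f5, a pocket protein partner, fell in Src (-0.99, adjusted p = 6.2e-05). Messages bound by IGF2BP proteins fell more often than they rose outside NeuT. Of 8 measured, 0 rose and 4 fell in Myc, 1 and 0 in NeuT, 0 and 4 in Ras and 1 and 4 in Src, with medians of -0.37, -0.06, -0.36 and -0.14. Without control array 3, 5 fell in Myc and 5 in Ras, with Actb added, and the other counts were the same. Cd44, a hyaluronan receptor, fell in Ras (-1.60, adjusted p = 2.1e-07), Myc (-1.01) and Src (-0.42, adjusted p = 0.0207) and was at 0.24 in NeuT. Ptgs2, the inducible cyclooxygenase, fell in Myc (-0.82) and Src (-1.09). Myc, in both lists, was at 9.70 in control, 8.78 in the arrays labelled Myc, 10.97 in NeuT, 8.93 in Ras and 10.47 in Src.

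The IGF axis fell more than it rose. Of 16 measured genes, 1 rose and 6 fell in Myc, 2 and 6 in NeuT, 1 and 8 in Ras and 2 and 6 in Src. Of all genes 13.3% to 15.9% rose and 11.6% to 14.2% fell, with medians of 0.02 to 0.06. The list medians were -0.56, -0.42, -0.86 and -0.33. Without control array 3, which was higher in Igfbp5 by 2.22, Igfbp4 by 1.26 and Igfbp7 by 1.17, these medians were -0.22, -0.14, -0.41 and -0.08. The counts were then 0 and 6, 2 and 6, 2 and 7 and 2 and 6. The 6 smooth muscle markers averaged 7.21 to 7.65 per array in control and 5.74 to 6.52 in the lines. The 5 endothelial markers averaged 7.15 in control array 3 and 5.03 at the lowest control. The part of kidney RNA and of other cell types in the remaining values was not tested. Pappa, a protease that frees IGF from its binding proteins, was at 7.73, 7.67 and 7.53 in control and between 5.35 and 5.82 in the 12 line arrays. No line array overlapped the controls, and the difference was -2.01 to -2.04 in the 4 groups (adjusted p from 5.32e-09 to 1.32e-08). The differences among the oncogene groups did not pass (F test, adjusted p = 1). Igf1, Igf2r and Igfbp2, singled out after their values were seen, also fell in each group, with differences of -0.70 to -0.83, -1.36 to -1.91 and -1.16 to -1.28. In the lines Pappa and Igf1 lay below 6.47 and Igfbp2 near it. The size of these falls, and how alike they are across the groups, is therefore unsure. The Ras arrays were far apart in Igf2r (SD 1.30), which the imprinted list also holds.

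Igfbp3, the main carrier of IGF in serum, separated the oncogenes most within this list (F test, adjusted p = 2.92e-12). It was at 9.29, 9.19 and 9.16 in control, 11.23, 11.19 and 11.26 in Src and 5.83, 5.38 and 5.91 in Ras. In Myc it was at 9.58, 9.42 and 9.80, a rise of 0.38 (adjusted p = 0.0314) that was lost without control array 3 (adjusted p = 0.073). It rose in Src (2.01 ± 0.12, adjusted p = 6.04e-08) and NeuT (1.29, adjusted p = 3.25e-06) and fell in Ras (-3.51 ± 0.12, adjusted p = 6.93e-11). Ras, the group with the highest Igf2bp3, had the lowest Igfbp3. Irs1, the docking protein of the IGF1 and insulin receptors, rose in NeuT (0.93) and Src (0.86) and fell in Ras (-2.03, adjusted p = 6.05e-06). Igfbp7 fell in Myc by -4.01 (adjusted p = 3.72e-07) and NeuT by -1.91, and its fall in Ras (-1.04) was lost without control array 3 (adjusted p = 0.071). Pappa2, a related protease, rose in Ras (0.69, adjusted p = 0.000141).

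Imprinted growth genes, which like Igf2 are expressed from 1 parental copy, moved in both directions. Of 11 measured, 2 rose and 5 fell in Myc, 2 and 5 in NeuT, 2 and 3 in Ras and 2 and 4 in Src. The shares of all genes were 13.3% to 15.9% risen and 11.6% to 14.2% fallen, with medians of 0.02 to 0.06. The list medians were -0.63, -0.42, -0.30 and -0.21. Without control array 3 the medians were -0.47, -0.30, -0.15 and -0.11, and the fall of Cdkn1c in NeuT was lost. Peg3, a zinc finger protein of the paternal copy, was at 6.74, 6.70 and 6.73 in control, 5.18, 5.51 and 5.08 in Myc and 5.87, 5.50 and 5.37 in Src. It was at 7.74, 7.50 and 7.87 in NeuT and 9.60, 9.35 and 9.49 in Ras. Peg3 was thus above all controls in the 2 groups where Igf2bp3 was, and below them in the other 2 (Ras minus control 2.76, NeuT minus control 0.98, adjusted p = 2.73e-09 and 9.73e-05). Ndn, a growth suppressor of the MAGE family, rose in Ras (1.05, adjusted p = 0.013) and fell in Myc (-2.32), NeuT (-1.34) and Src (-2.22). Mest, a hydrolase-like gene of mesoderm, rose in Myc by 1.60 (adjusted p = 1.12e-07) and in Src by 0.38 (adjusted p = 0.0197). Phlda2, a brake on placental growth, rose in NeuT by 2.21 (adjusted p = 1.18e-07), Src by 0.78 and Myc by 0.47. The 10 fibroblast markers averaged 5.96 to 6.30 in Ras, 5.81 to 6.07 in control and 5.57 to 5.72 in the other lines. Within this list Dcn (1.14) and Col3a1 (0.54) rose in Ras over control, Pdgfra fell (-0.45) and the rest did not pass. The part of fibroblast-like cells in the levels of the imprinted genes was not tested.

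**Figure D3:**
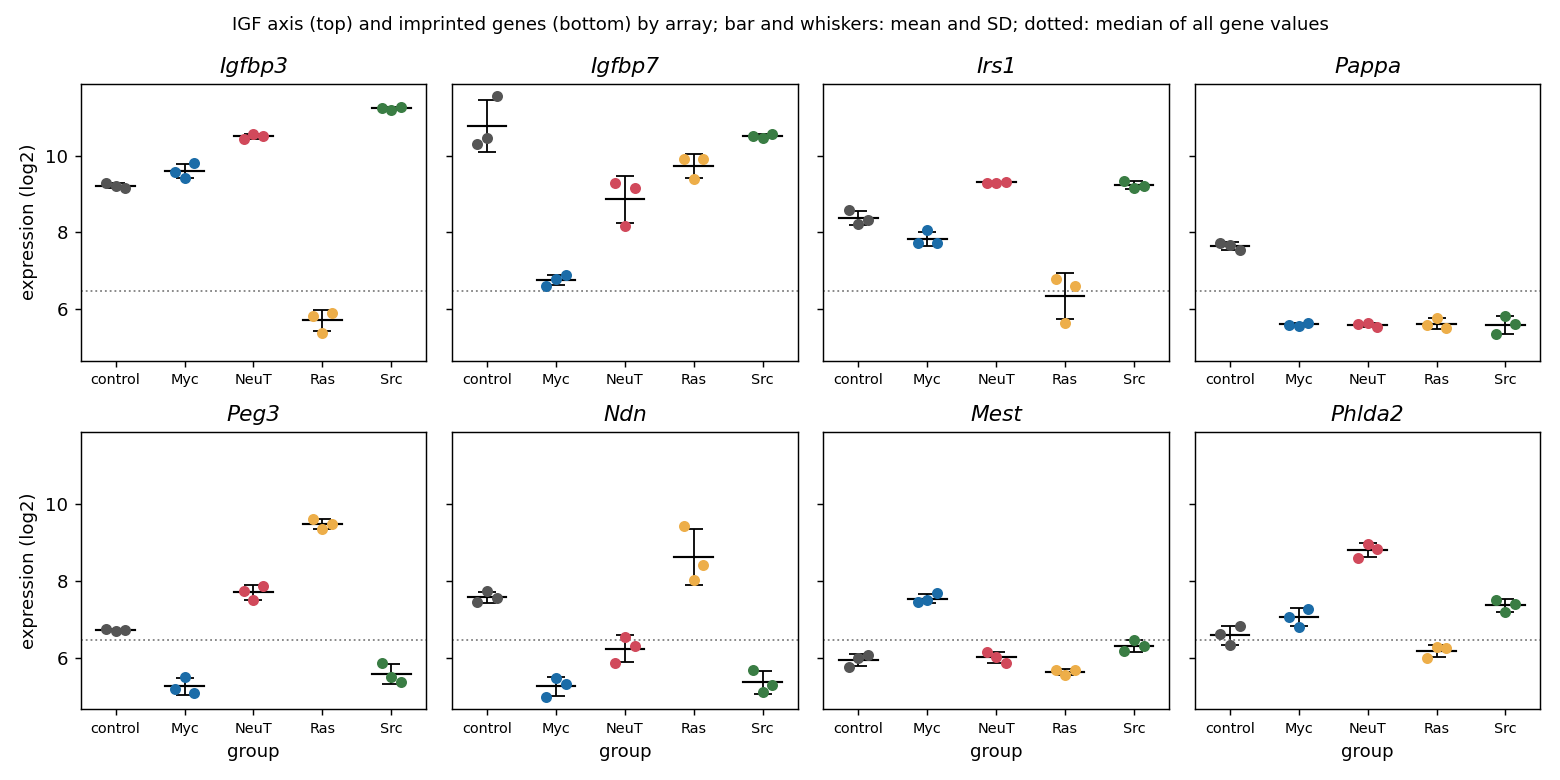
Expression (log2) of IGF axis genes (top row) and imprinted genes (bottom row) on each array, by group; points are arrays, bars and whiskers the mean and SD of 3, and the dotted line the median of all gene values (6.47). Pappa is lower in all 12 line arrays than in control, and Igfbp3 and Peg3 lie apart in Ras in opposite directions.

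**Figure D4:**
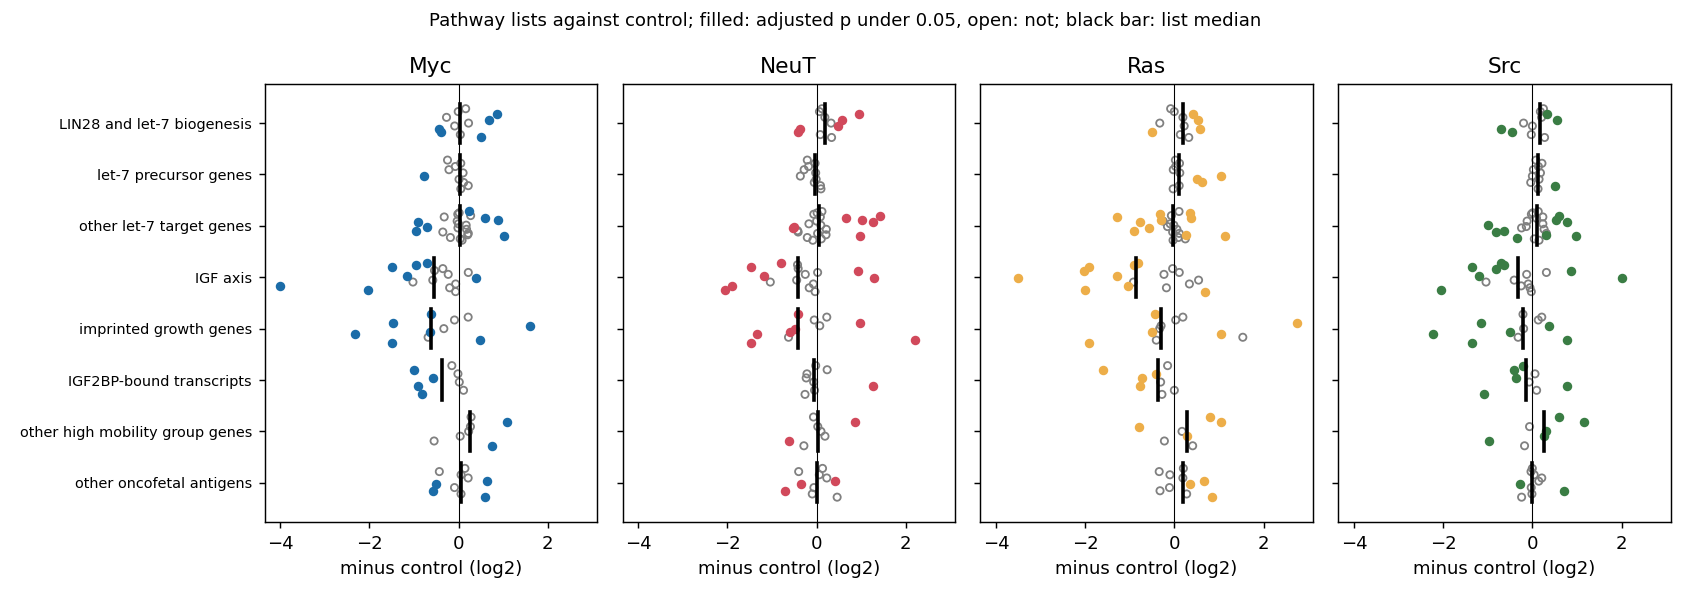
Difference from control (log2) of each measured gene of 8 lists, 1 panel for each oncogene group; filled points passed at an adjusted p under 0.05, open points did not, and black bars are list medians. The IGF axis median is lowest in Ras (-0.86), and the other let-7 targets have medians from -0.04 to 0.11.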

How the data were processed

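Total RNA was extracted with Trizol, amplified by WT-Ovation Pico and biotin-labelled, per the labels. The deposited values are log2 expression per probe set, normalized by the authors. The submitters' processing notes list RMA and Affymetrix Expression Console 1.1 without saying what each did. The build and other settings: not given in the sources used here.

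Of 35556 probe sets, 21789 were assigned to 1 gene, and the brightest by mean was taken for each of 19938 genes. A model of 5 group means was fitted to all 15 arrays and all genes with limma 3.58.1 (lmFit, eBayes) in R 4.3.3, with p-values two-sided and Benjamini-Hochberg adjusted over all genes. The threshold was 0.05 on the adjusted p. Comparisons of Hmga2 with control, and of the pooled lines with control for any member, have no test. The members and the gene lists were chosen with earlier results of these data known. Up to 4 genes a list were named by the F test and up to 2 by the tests against control, and likeness took 3 genes for each member whose group means spanned at least 1 (log2), among genes reaching 6.47 in a group. The fit was tested on simulated data. Figures were drawn with matplotlib 3.10.9 in Python 3.11.15. Alternatives were array scaling, probe set choice, a level filter, variance model, array weights, the groups fitted, a replicate block, leaving out each array and a 2-fold minimum.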

Additional observations from a re-analysis of the deposited data

Results flagged for a closer look

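The 4 oncogene groups differed in the level of 4 members by the F test in limma: Hmga2 (adjusted p = 2.39e-07), Igf2bp1 (adjusted p = 7.43e-09), Igf2bp3 (adjusted p = 1.13e-09) and Lin28b (adjusted p = 1.63e-06). Oncogene and origin of the lines cannot be told apart in this difference. Hmga2 was highest in NeuT and lowest in Ras, Igf2bp1 highest in NeuT and lowest in Myc, Igf2bp3 highest in Ras and lowest in Myc, and Lin28b highest in Myc and lowest in Ras. Groups of 3 arrays are too small for a test of single arrays that stand apart.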

How the results depend on the processing

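The 2-fold minimum is left out of the next count. Of 1162 values of a member under another alternative, 1156 kept their direction where called and their side of the threshold, 2 lost a call and 4 gained one. Those 6 were Hmga2 in Ras against Src (lost) and Igf2bp1 and Lin28b in Myc against Src (gained). Igf2bp1 in Myc against Src also passed with array weights (adjusted p = 0.0322) and with only these groups fitted (adjusted p = 0.0315). Igf2 was left out by the level filter. With the mean of its probe sets, Igf2bp1 differed from control by 1.46 in the pooled lines in place of 1.83. Genes called numbered 8386 among the oncogenes by the F test, and 2237 with a range of at least 1 (log2). Pair counts were 2979, 5665, 3777, 5607, 4019 and 5214 for Myc-NeuT, Myc-Ras, Myc-Src, NeuT-Ras, NeuT-Src and Ras-Src, and 463, 1227, 619, 1191, 709 and 1094 at 2-fold or more. Counts against control were 5699, 5339, 5469 and 5263 for Myc, NeuT, Ras and Src, and 1288, 1182, 1412 and 886 at 2-fold or more. The 2-fold minimum takes a subset of the same calls. Under it the members called went from 2 to 1 in Myc and from 3 to 2 in NeuT, each against control. In Ras against Src they went from 4 to 3, and the other member counts stayed the same. Array weights gave 4584 calls for Myc-NeuT, and fitting only the groups compared gave 3567 for Ras against control, and the cause was not tested. The main fit gives each gene 1 spread for all groups, although replicates were not equally alike. Between 2 arrays of a group, 185 to 332 genes differed at least 2-fold in Ras and 3 to 709 in control. In Myc, NeuT and Src 3 to 31 did. The shared replicate numbers are not said to mark a batch, and same-numbered arrays of different groups had residual correlations from -0.08 to 0.12 (3 of 30 over 0.1), so they were not treated as pairs. With the replicate block the F test called 8306 genes and no member's call changed. Depth does not apply to arrays. Signal near background limits Igf2, Lin28b, Igf2bp3 outside Ras, and Igf2bp1 in control and Myc.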

Other observations

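Other high mobility group genes and other oncofetal antigens moved in both directions. Of 7 measured high mobility group genes, 2 rose and 0 fell in Myc, 1 and 1 in NeuT, 3 and 1 in Ras and 4 and 1 in Src, and without control array 3 the counts were 2 and 1, 1 and 1, 3 and 1 and 2 and 1. Hmgb2, a DNA-bending protein of dividing cells, rose in each group, by 1.08 in Myc, 0.86 in NeuT, 1.04 in Ras and 1.15 in Src (limma, adjusted p from 4.43e-06 to 4.6e-05). Hmgb3 fell in Ras (-0.79, adjusted p = 0.000639), and Hmgn5, a nucleosome-binding protein, rose in Myc (0.75, adjusted p = 0.0039). Of 10 oncofetal antigens, 2 rose and 2 fell in Myc, 1 and 2 in NeuT, 3 and 0 in Ras and 1 and 1 in Src, and without control array 3 the counts were 2 and 1, 2 and 2, 3 and 0 and 1 and 1. Among all genes 13.3% to 15.9% rose and 11.6% to 14.2% fell in these comparisons. Plac1, a placental gene, rose in Myc (0.65), NeuT (0.42) and Ras (0.66) but stayed below 6.47. Tpbg, the trophoblast glycoprotein, rose in Ras (0.35, adjusted p = 0.00619) and fell in Myc (-0.51), NeuT (-0.34) and Src (-0.28). Ptn, the growth factor pleiotrophin, rose in Src (0.72) and fell in NeuT (-0.70), and its fall in Myc (-0.58) was lost without control array 3 (adjusted p = 0.0739). Afp, the fetal serum protein, was at 5.72 to 5.92 in every group.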
